A study of Mus musculus with 30 samples.

Results

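Cortical thymic epithelial cells (cTEC) were compared with medullary thymic epithelial cells (mTEC) in the thymus of newborn mice. The comparison took the 6 cTEC and the 6 mTEC libraries, 12 of the 30 RNA sequencing libraries of a study of VEGF in the neonatal thymus, and treated the injected agent as a blocking factor. The groups were cTEC from mice given Trap (4 libraries), cTEC from control mice (2), mTEC from mice given Trap (4) and mTEC from control mice (2). All mice were of strain B6.SJL, of mixed sex and 3 days old. Trap is aflibercept, a soluble receptor fusion that binds VEGF, and controls received hFC antibodies. Both agents were given on postnatal day 1, and thymi were taken 2 days later. Both epithelial populations were sorted as CD45-negative, TER119-negative, EpCAM-positive cells that lacked CD3, CD4 and CD8, with cTEC taken as positive for Ly51, the product of Enpep, and mTEC as low in or lacking it. Neither the number of mice pooled in a library nor whether libraries came from different mice is stated, so p-values reflect only variation among libraries, which may in part be technical. The other 18 libraries, of mesenchyme and endothelium, serve here only as a reference where stated.

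The thymic cortex and medulla are lined by epithelial cells that divide the work of T cell selection. Cortical epithelium draws in T cell progenitors with chemokines and Notch ligands, and it uses a private set of proteases to make the peptides on which thymocytes are positively selected. Medullary epithelium expresses, partly through the regulator Aire and partly through small populations that imitate other tissues, many genes that otherwise belong to single organs, and thereby removes self-reactive T cells or turns them into regulatory cells.

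Levels below are FPKM as the authors deposited them, that is, fragments divided by gene length and by the fragments of the library, given as the lowest to the highest of the 6 libraries of a population with the median. A difference is the cTEC minus the mTEC mean on the log2(FPKM + 1) scale, adjusted for treatment, with its standard error (SE). That scale understates the change of genes at low FPKM. A gene passed when its limma p, adjusted by Benjamini-Hochberg over all genes tested, was under 0.05.

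Defining genes of the 2 populations mostly stood on the side of their labels. Of 14 cortical genes, 13 stood higher in cTEC and 0 in mTEC, and of 16 medullary genes, 0 were cTEC-high and 16 mTEC-high, against a background of 16.8% of all genes tested higher in cTEC and 33.8% higher in mTEC. The median difference was 2.49 for the cortical and -3.53 for the medullary genes, beside -0.17 over all genes. Both lists were written with earlier results of these data known. Of the 16 medullary genes, 2 were under 1 FPKM in every cTEC library and could differ only toward mTEC. The counts therefore describe the lists and test nothing about the labels. Psmb11 (GRCm38 chromosome 14, 54621433 to 54629556, plus strand), the catalytic subunit that makes the thymoproteasome of cortical epithelium, was at 24.3 to 48.4 FPKM (median 34.1) in cTEC and 0.17 to 2.56 FPKM (median 0.745) in mTEC. Prss16 (GRCm38 chromosome 13, 22002173 to 22009742, minus strand), the thymus-specific serine protease, was at 252 to 394 FPKM (median 325) in cTEC and 3.47 to 13.1 FPKM (median 7.18) in mTEC. Aire (GRCm38 chromosome 10, 78030022 to 78043610, minus strand), the regulator of organ-restricted genes in the medulla, was at 0.34 to 1.98 FPKM (median 0.86) in cTEC and 96.9 to 153 FPKM (median 127) in mTEC. For each of these genes the lowest library of the higher population stood far above the highest library of the other. Krt5 (GRCm38 chromosome 15, 101707070 to 101712898, minus strand), a keratin of basal epithelium found mainly in the medulla, was at 66.1 to 95.2 FPKM (median 75.3) in cTEC and 237 to 441 FPKM (median 386) in mTEC, so it separated the populations by level while being abundant in both. The differences were 4.30 ± 0.21 for Psmb11, 5.30 ± 0.17 for Prss16, -6.00 ± 0.19 for Aire and -2.15 ± 0.14 for Krt5 (log2 ± SE), with adjusted p of 3.3e-10, 6.65e-12, 5.11e-12 and 8.18e-09. The gate itself was visible in Enpep, which was at 20.97 to 25.4 FPKM (median 22.2) in cTEC and 1.21 to 3.95 FPKM (median 1.75) in mTEC. Epcam, the other epithelial gate, was high throughout, at 274 to 322 FPKM (median 307) in cTEC and 382 to 588 FPKM (median 466) in mTEC.

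**Figure D1:**
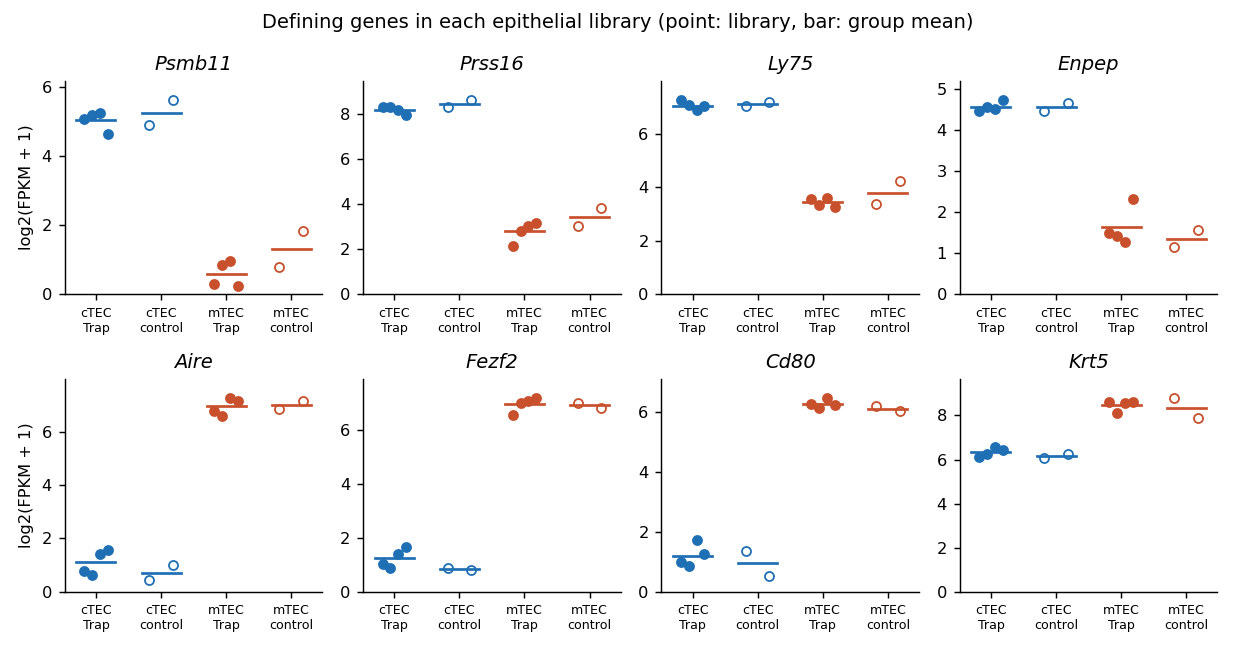
Level of 8 defining genes in each of the 12 epithelial libraries, as log2(FPKM + 1) on the vertical axis, by population and treatment. Each point is a library and each bar the group mean. Psmb11, Prss16, Ly75 and Enpep lie higher in every cTEC library, and Aire, Fezf2, Cd80 and Krt5 in every mTEC library, under Trap and in controls alike.

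Transcripts of other cell types differed between the populations, and bulk RNA cannot tell fewer cells of a type from less RNA per cell. Of 17 thymocyte genes tested, 16 were higher in cTEC and 0 in mTEC, beside 16.8% and 33.8% of all genes tested. Under 1 FPKM in every mTEC library were 8 of the 19 genes of the list. Genes tested through cTEC alone could differ only toward cTEC. The summed level of the thymocyte genes was 139 to 287 in cTEC libraries and 30.6 to 61.9 FPKM in mTEC libraries. Rag1, a subunit of the recombinase that cuts antigen receptor genes, was at 21.4 to 50.6 FPKM (median 35.1) in cTEC and 0.04 to 2.67 FPKM (median 1.53) in mTEC. Cd8a, the co-receptor chain used as a negative gate, was at 7.49 to 24.6 FPKM (median 16.1) in cTEC and 0.09 to 1.78 FPKM (median 0.715) in mTEC. Ptprc, which encodes CD45, was at 3.07 to 7.82 FPKM (median 4.66) in cTEC and 0.29 to 1.14 FPKM (median 0.715) in mTEC. CD45, CD3, CD4 and CD8 were negative gates of the sort, and the part of thymocyte RNA in the cTEC results was not tested. In the opposite direction, 0 of 13 myeloid genes stood higher in cTEC and 11 in mTEC, against the same background. Their summed level was 15.9 to 25.5 in cTEC and 104 to 171 FPKM in mTEC. Laptm5, a lysosomal membrane protein of blood cells, was the highest of them in mTEC, at 2.62 to 6.55 FPKM (median 5.04) in cTEC and 47.6 to 76.8 FPKM (median 60.5) in mTEC, whereas the macrophage and dendritic cell genes C1qa, Itgax and Siglech stayed under the expression filter. Of 6 B cell genes, 5 were higher in mTEC, beside 33.8% of all genes, with sums of 0.97 to 4.35 in cTEC and 12.1 to 24.5 FPKM in mTEC. Ms4a1, a B cell surface marker, was under the filter. Under 1 FPKM in every cTEC library were 6 of the 8 B cell and 11 of the 16 myeloid genes. So were 5 of the 12 fibroblast, 10 of the 12 endothelial and 4 of the 12 mural cell genes described next. Genes tested through mTEC alone could differ only toward mTEC. Of 9 fibroblast genes tested, 2 were higher in cTEC and 6 in mTEC, beside 16.8% and 33.8% of all genes tested. The list summed to 26.9 to 39.97 in cTEC and 131 to 298 FPKM in mTEC. Most of the sum in mTEC was Ly6a, which epithelium can also express. Pdgfra and Col1a2 were under the filter. Of 7 endothelial genes, 1 was higher in cTEC and 4 in mTEC, against the same background. Their sums were 4.52 to 5.95 in cTEC and 11 to 16.8 FPKM in mTEC. Kdr, Tie1 and Emcn were under the filter. Of 11 mural cell genes tested, 2 were higher in cTEC and 6 in mTEC, against the same background. The list summed to 102 to 149 in cTEC and 513 to 765 FPKM in mTEC. Rgs5, a regulator of G protein signalling known from pericytes, made up most of this sum in mTEC, at 11.6 to 44.9 FPKM (median 38.3) in cTEC and 425 to 689 FPKM (median 523) in mTEC, while Pdgfrb, the receptor that defines mural cells, was at 0.18 to 1.15 FPKM (median 0.255) in cTEC and 2.80 to 4.41 FPKM (median 3.31) in mTEC. The median difference of the mural list was -0.54 as deposited and turned to 0.05 after quantile normalization. The part of these other cell types in the mTEC results was not tested.

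**Figure D2:**
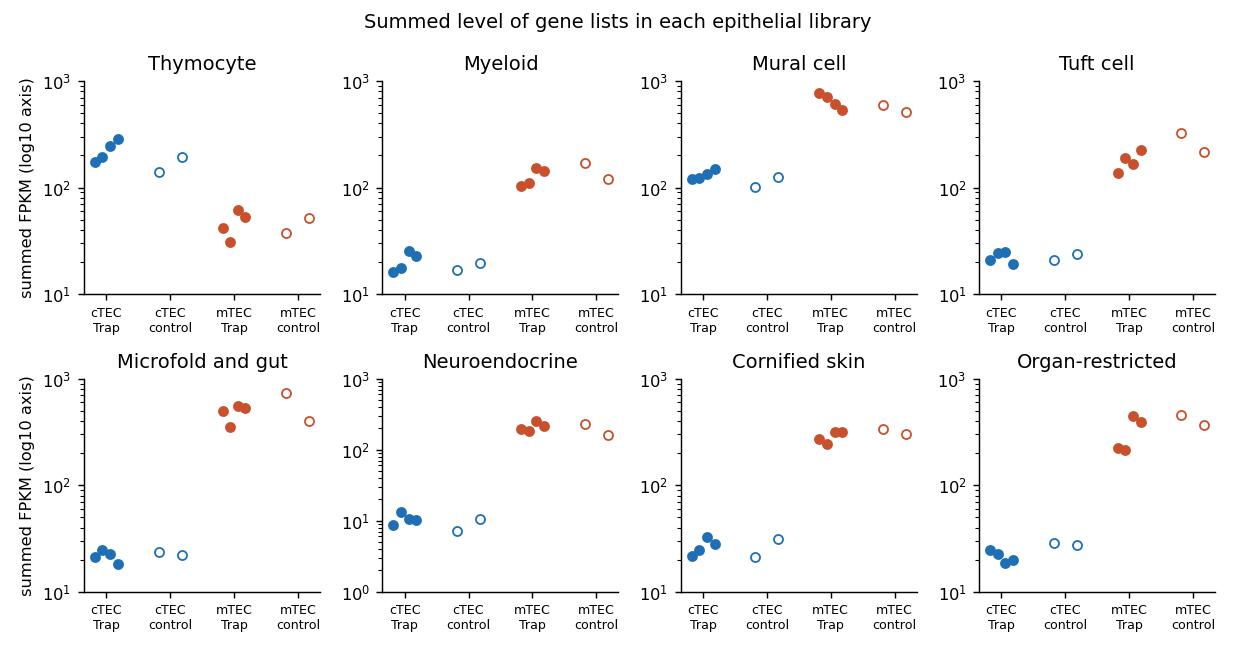
Summed FPKM of 8 gene lists in each library (log10 axis), by population and treatment. Points are libraries. Thymocyte genes lie higher in every cTEC library, and the myeloid, mural, tuft, gut, neuroendocrine, cornified and organ-restricted lists in every mTEC library.

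Across the transcriptome, medullary libraries held the broader repertoire. Of 15049 genes tested out of 18847 in the table, 7613 (50.6%) differed, 2525 (16.8%) higher in cTEC and 5088 (33.8%) higher in mTEC, and the 6 cTEC and 6 mTEC libraries did not overlap for 29.8% of the genes tested. The balance between the directions depended on the scaling. The median difference over all genes was -0.17 on the log2 scale as deposited, and it moved by 0.13 after rescaling to TPM, by 0.13 after upper quartile scaling and by 0.29 after quantile normalization. cTEC-high genes made up 33.2% of the calls as deposited, against 44.2%, 44.9% and 58.0% under these scalings. No gene called as deposited was called in the other direction under any of the 3. The FPKM of a library summed to 198537 to 212124 in cTEC and 213740 to 241993 in mTEC.

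A cTEC library held 11483 ± 92.6 genes at 1 FPKM or more and an mTEC library 13288 ± 373 (SD, n = 6 each), with no overlap (exact permutation test, two-sided p = 0.00216, the smallest that 6 against 6 allows). The mTEC libraries also varied more among themselves. Pearson correlations across genes were 0.970 to 0.982 between cTEC libraries, 0.938 to 0.958 between mTEC libraries and 0.825 to 0.867 between the populations, and the median gene's SD on the log2 scale was 0.229 in cTEC and 0.317 in mTEC. At a threshold of 1 FPKM, 48 genes were on in every cTEC library and off in every mTEC library, whereas 691 were on in every mTEC library and off in every cTEC library. Of the 48, 72.9% reached 1 FPKM in at least 1 of the 18 mesenchymal and endothelial libraries, and of the 691, 53.7% did, beside 90.1% of all genes tested. The remaining 320 medullary genes reached it in none of those 18. Several of the 48 were thymocyte genes, Cd3e among them, and the 48 became 23 at a threshold of 0.5 FPKM, 87 at 2 FPKM and 9 after rescaling to TPM.

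**Figure D3:**
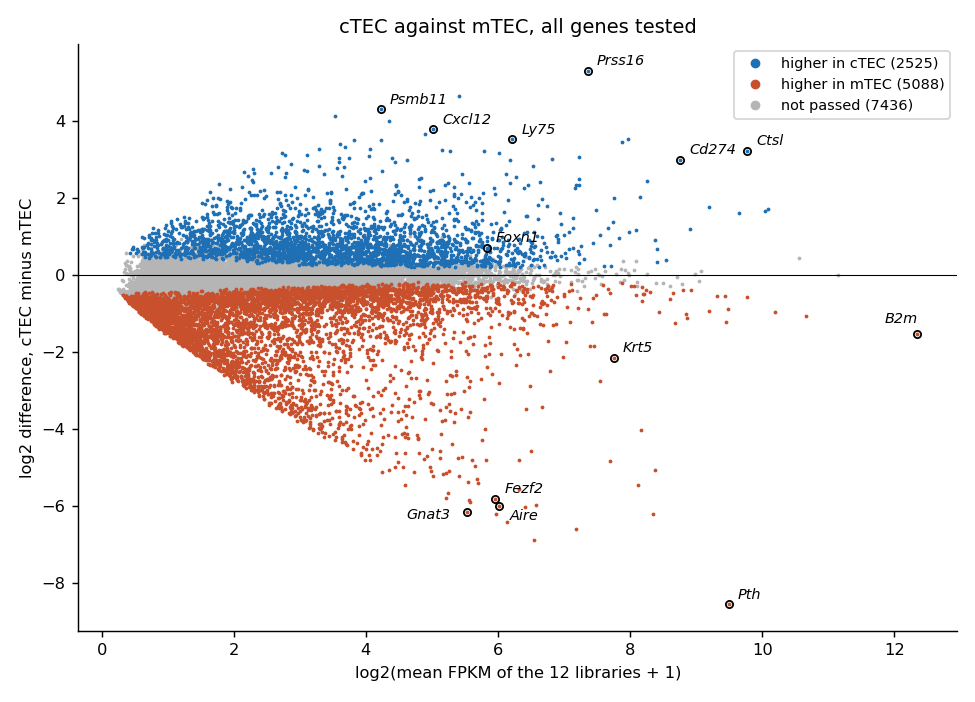
Difference between cTEC and mTEC (log2, vertical axis, positive where cTEC is higher) against log2 of the mean FPKM of the 12 libraries + 1 for the 15049 genes tested. Coloured points passed at an adjusted p under 0.05, 2525 higher in cTEC and 5088 higher in mTEC, and the named genes are the defining genes and some of the largest differences.

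Each population had 2 control libraries beside 4 Trap libraries, which limits any comparison of the agents. No gene showed a cTEC minus mTEC difference that changed with Trap at an adjusted p under 0.05 (limma interaction term, 0 of 15049, or 0%). The smallest adjusted p of this term was 0.0869. An unadjusted p under 0.05 was found for 563 genes, fewer than that threshold would give if no gene differed. Of the 7613 genes that differed between the populations, 99.6% had the same sign in the Trap and in the control libraries. These genes were called in a fit to the same Trap and control libraries, which favours a shared sign. The share therefore describes the called genes and tests nothing about the agents. The genes of smallest interaction p with a group mean of at least 5 FPKM were Serpinb7, Il23a and Rhox2a in one direction and Cd200, Pcbp1 and Dgat1 in the other. Il23a, a cytokine subunit, was at means of 2.14 FPKM in Trap and 0.54 FPKM in control cTEC and of 14.1 FPKM in Trap and 22.1 FPKM in control mTEC (adjusted p = 0.639). Cd200, an inhibitory ligand, stood at 20.9 FPKM in Trap and 26.6 FPKM in control cTEC and at 18.3 FPKM in Trap and 11.7 FPKM in control mTEC, with an adjusted p close to 1. A p that misses the threshold does not show that treatment left the difference alone.

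Among the 20 genes with the largest differences toward cTEC, were the defining genes Prss16 and Psmb11, the chemokine gene Cxcl12 and the thymocyte genes Rag1 and Cd8a. Ctsl, the cathepsin that trims invariant chain in cortical epithelium, was the most abundant of the 20, at 1311 to 1723 FPKM (median 1598) in cTEC and 151 to 203 FPKM (median 163) in mTEC. Tbata, named for its expression in thymus, brain and testis, was at 264 to 515 FPKM (median 462) in cTEC and 30.8 to 48.1 FPKM (median 36.7) in mTEC. Pltp, which transfers phospholipids between lipoproteins, was at 94.2 to 132 FPKM (median 115) in cTEC and 7.49 to 19.5 FPKM (median 11.9) in mTEC. None of these overlapped between the populations, which was a condition for entering the 20, beside 29.8% of all genes tested without overlap. Also among the 20 were Fmo1, a flavin monooxygenase of drug metabolism, at 22.5 to 39.7 FPKM (median 35.8) in cTEC and 0.48 to 6.73 FPKM (median 1.83) in mTEC, and Fgf14, an intracellular regulator of sodium channels, at 58.7 to 75.5 FPKM (median 69.8) in cTEC and 5.07 to 9.81 FPKM (median 6.28) in mTEC. Pkhd1l1, a large receptor-like protein, was at 19.97 to 37.96 FPKM (median 30.9) in cTEC and 1.49 to 3.49 FPKM (median 1.96) in mTEC, and Ndrg3, a lactate-binding protein of the hypoxia response, was at 89.3 to 112 FPKM (median 97.9) in cTEC and 7.69 to 13.8 FPKM (median 9.68) in mTEC.

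The 20 genes with the largest differences toward mTEC included secreted products of liver, breast and gut. Hamp, the liver hormone hepcidin that limits iron uptake, was at 0.17 to 5.47 FPKM (median 0.9) in cTEC and 79.02 to 275 FPKM (median 163) in mTEC. Csn2, the milk protein beta-casein, was at 0.28 to 1.11 FPKM (median 0.5) in cTEC and 53.3 to 121 FPKM (median 98.6) in mTEC. Reg3g, an antibacterial lectin of the gut lining, was at 1.83 to 2.52 FPKM (median 2.19) in cTEC and 92.2 to 244 FPKM (median 146) in mTEC. S100a9, a calcium-binding protein of neutrophils and stressed skin, was at 0 to 1.09 FPKM (median 0.055) in cTEC and 36.6 to 97.2 FPKM (median 82.7) in mTEC. Its partner S100a8 was at 0 to 1.91 FPKM (median 0.545) in cTEC and 53.4 to 144 FPKM (median 83.4) in mTEC. The groups did not overlap for any of these, which was again a condition for entering the 20. Fezf2, which controls a set of organ-restricted genes separate from that of Aire, was the only other transcription factor beside Aire among the 20, at 0.75 to 2.15 FPKM (median 0.94) in cTEC and 92.2 to 142 FPKM (median 125) in mTEC (difference -5.81 ± 0.15, adjusted p = 1.19e-12). Ang4, a Paneth cell antimicrobial ribonuclease, was at 0 to 0.17 FPKM (median 0) in cTEC and 23.5 to 64.3 FPKM (median 51.5) in mTEC, and Clca3b, of the calcium-activated chloride channel regulators, was at 0.55 to 3.36 FPKM (median 1.25) in cTEC and 91.4 to 106 FPKM (median 102) in mTEC. Lyz1 and Lyz2, and the Bcl2a1 copies among the 20, have near-identical paralogs, so the split of reads between copies is uncertain.

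Of 15 transcription factors of the epithelium tested, 7 were higher in cTEC and 5 in mTEC, beside 16.8% and 33.8% of all genes tested, with a median difference of 0.16. Pax1, a factor of the pharyngeal pouch from which the thymus arises, differed most toward cTEC, at 83.7 to 122 FPKM (median 98.96) in cTEC and 18.1 to 28.2 FPKM (median 22.5) in mTEC (difference 2.10 ± 0.11, adjusted p = 4.87e-10). Foxn1, the master regulator of thymic epithelium, was at 49.5 to 96.7 FPKM (median 69.7) in cTEC and 36.8 to 47.6 FPKM (median 41.6) in mTEC, a difference of 0.71 ± 0.14 without overlap, which passed here but not in a fit over all 30 libraries (adjusted p = 0.141). Trp63, the stem cell factor of stratified epithelia, was at 59.8 to 74.5 FPKM (median 70.4) in cTEC and 33.5 to 42.8 FPKM (median 36.97) in mTEC. All of these were thus expressed in both populations and graded between them. On the medullary side Ehf, an ETS factor of barrier epithelia, was at 7.36 to 13.9 FPKM (median 9.03) in cTEC and 40.6 to 75.4 FPKM (median 52.1) in mTEC. Prdm1, a repressor that marks late differentiation, was at 2.29 to 6.19 FPKM (median 3.33) in cTEC and 9.19 to 13.4 FPKM (median 11.2) in mTEC.

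Of 14 ligands by which epithelium recruits and feeds thymocytes, 8 were higher in cTEC and 2 in mTEC, against a background of 16.8% and 33.8%, with a median difference of 0.76 beside -0.17 over all genes. Il7, the survival cytokine of early T cells, was at 65.5 to 90.96 FPKM (median 77.2) in cTEC and 25.2 to 35.6 FPKM (median 26.6) in mTEC (difference 1.43 ± 0.11, adjusted p = 2.93e-08). Kitl, the ligand of the progenitor receptor Kit, was at 19.98 to 36.9 FPKM (median 30.4) in cTEC and 6.22 to 12.1 FPKM (median 8.74) in mTEC. Among Notch ligands, Dll4, which commits progenitors to the T lineage, was at 4.65 to 9.67 FPKM (median 6.82) in cTEC and 2.29 to 5.16 FPKM (median 3.17) in mTEC, and its libraries overlapped. Dll1 was the more abundant of the delta ligands, at 24.3 to 31.1 FPKM (median 29.01) in cTEC and 5.73 to 12.8 FPKM (median 8.305) in mTEC, and Jag2 was at 7.20 to 10.7 FPKM (median 9.12) in cTEC and 1.78 to 3.68 FPKM (median 2.36) in mTEC. Wnt4, which regulates Foxn1, was at 25.4 to 32.3 FPKM (median 30.7) in cTEC and 8.84 to 13.3 FPKM (median 11.2) in mTEC. The exceptions were Tgfb2, at 4.83 to 6.14 FPKM (median 5.73) in cTEC and 10.5 to 18.96 FPKM (median 14.1) in mTEC, and Jag1, at 14.1 to 26.2 FPKM (median 19.2) in cTEC and 22.3 to 33.1 FPKM (median 23.9) in mTEC with overlapping libraries. The call for Jag1 was lost after rescaling to TPM (adjusted p = 0.276), upper quartile scaling (0.26) and quantile normalization (0.127), with a replicate block (0.0566), with Trap (0.152) or control libraries only (0.195), and when cTEC control replicate 2, cTEC Trap replicate 1 or 2, either mTEC control replicate, or mTEC Trap replicate 1 or 2 was left out, with adjusted p of 0.0521 to 0.094.

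Of 16 chemokine genes, their decoy receptors included, 6 stood higher in cTEC and 9 in mTEC, beside 16.8% and 33.8% of all genes tested. Under 1 FPKM in every cTEC library were 4 of the 16, which could differ only toward mTEC. On the cortical side stood Cxcl12, the ligand of Cxcr4, at 53.99 to 67.5 FPKM (median 59.5) in cTEC and 1.90 to 6.24 FPKM (median 3.26) in mTEC, and Ccl25, the ligand of Ccr9, at 90.4 to 147 FPKM (median 107) in cTEC and 21.4 to 46.4 FPKM (median 26) in mTEC. Ackr4, a decoy receptor that takes up Ccl19, Ccl21 and Ccl25, was also cortical, at 12.7 to 22.4 FPKM (median 15.96) in cTEC and 1.11 to 3.49 FPKM (median 1.41) in mTEC. Cxcl10, induced by interferon, was among the most abundant transcripts of this list in both populations, at 1308 to 1938 FPKM (median 1575) in cTEC and 379.6 to 688 FPKM (median 500.1) in mTEC. On the medullary side stood Ccl22, a ligand of Ccr4, at 0 to 1.27 FPKM (median 0.23) in cTEC and 29.8 to 130.4 FPKM (median 71.8) in mTEC, and Ccl20, the ligand of Ccr6, at 0 to 0.92 FPKM (median 0.05) in cTEC and 6.58 to 28.2 FPKM (median 14.2) in mTEC. Ccl19, which with Ccl21 draws positively selected thymocytes through Ccr7, was at 4.19 to 20.7 FPKM (median 13.2) in cTEC and 41.9 to 118 FPKM (median 71.97) in mTEC. Xcl1, which attracts Xcr1-bearing dendritic cells to the medulla, was listed at 0 in all cTEC libraries and was at 1.46 to 5.73 FPKM (median 4.32) in mTEC. None of these medullary genes overlapped between the populations, whereas Ccl21a, at 173 to 749 FPKM (median 480.0) in cTEC and 320.3 to 1749 FPKM (median 757) in mTEC, did and has close paralogs. Its call was lost after upper quartile scaling (adjusted p = 0.0613), with no filter (0.0504) or no treatment term (0.0702), in the fit over all 30 libraries (0.167), with control libraries only (0.476), and when cTEC control replicate 1, cTEC Trap replicate 1, 2 or 4, mTEC control replicate 1, or mTEC Trap replicate 1 or 3 was left out, with adjusted p of 0.0501 to 0.0784.

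The proteasome cuts the peptides shown on class I molecules. Of 12 proteasome genes, 3 stood higher in cTEC and 4 in mTEC, shares near the background of 16.8% and 33.8%, with a median of -0.12 that turned to 0.05 after rescaling to TPM and to 0.05 after upper quartile scaling. Beside Psmb11, the immunoproteasome subunits Psmb9, at 19.4 to 33.96 FPKM (median 24.2) in cTEC and 3.66 to 18.8 FPKM (median 10.8) in mTEC, and Psmb10, at 22.3 to 41.4 FPKM (median 31.1) in cTEC and 10.1 to 27.9 FPKM (median 18.3) in mTEC, were higher in cTEC. Psmb8, the immunoproteasome subunit whose place Psmb11 takes, went the other way, at 6.38 to 12.5 FPKM (median 7.78) in cTEC and 11.7 to 27.3 FPKM (median 15.9) in mTEC with overlapping libraries. The libraries of Psmb10 overlapped too, and its call was lost with Trap libraries only (adjusted p = 0.0599). The calls for Psmb9 (0.0662) and Psmb8 (0.065) were lost with control libraries only. Psme1, a subunit of the PA28 activator cap, was at 6.48 to 10.9 FPKM (median 9.08) in cTEC and 54.4 to 86.8 FPKM (median 60.5) in mTEC (difference -2.74 ± 0.11, adjusted p = 3.58e-11), and its partner Psme2 was at 12.4 to 19.3 FPKM (median 14.2) in cTEC and 32.8 to 67.7 FPKM (median 42.9) in mTEC.

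Of 10 MHC class I genes, 2 stood higher in cTEC and 6 in mTEC, beside 16.8% and 33.8% of all genes tested. H2-K1, a class I heavy chain, was at 346 to 435 FPKM (median 411) in cTEC and 654 to 938 FPKM (median 757) in mTEC. B2m, the light chain shared by class I molecules, was at 2489 to 2901 FPKM (median 2690.1) in cTEC and 6318 to 8986 FPKM (median 7903) in mTEC, a difference of -1.52 ± 0.12 that was 0 under quantile normalization, which gives the top-ranked gene, here B2m in every library, a single value. The members higher in cTEC were Tap1, of the peptide transporter, at 23.6 to 35.4 FPKM (median 27.5) in cTEC and 11.9 to 19.2 FPKM (median 15.9) in mTEC, and Erap1, the peptide-trimming aminopeptidase, at 17.98 to 21.6 FPKM (median 19.9) in cTEC and 12.9 to 17.7 FPKM (median 16.9) in mTEC. The call for Erap1 was lost in the fit over all 30 libraries (adjusted p = 0.15), with Trap (0.0697) or control libraries only (0.463), and without cTEC Trap replicate 1 (0.0649), cTEC Trap replicate 3 (0.0501) or mTEC Trap replicate 4 (0.0594).

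Lysosomal proteases cut the proteins whose peptides class II molecules present. Of 13 lysosomal genes tested, 4 were higher in cTEC and 6 in mTEC, beside 16.8% and 33.8% of all genes tested. With Ctsl and Prss16 on the cortical side were Ctsa, at 36.2 to 45.9 FPKM (median 41.3) in cTEC and 8.61 to 11.8 FPKM (median 10.6) in mTEC, and Lamp2, a lysosomal membrane protein needed for autophagy, at 192 to 216 FPKM (median 205) in cTEC and 66.7 to 82.4 FPKM (median 72.1) in mTEC. On the medullary side were Ctss, the cathepsin of professional antigen-presenting cells, at 3.39 to 8.72 FPKM (median 5.34) in cTEC and 72.2 to 124 FPKM (median 109.7) in mTEC, Ctsh at 0.49 to 2.52 FPKM (median 1.81) in cTEC and 35.3 to 52.98 FPKM (median 48.4) in mTEC, and Ctsz at 0.85 to 4.28 FPKM (median 2.60) in cTEC and 51.6 to 114 FPKM (median 66.2) in mTEC. The difference was -4.13 ± 0.18 for Ctsh and -4.40 ± 0.21 for Ctsz, and no library of one population reached the other. Ctss is also a myeloid gene, and the part of myeloid cells in its level was not tested. Of 11 autophagy genes, 4 stood higher in cTEC and 2 in mTEC, against the same background, with a median of 0.15. Gabarapl1, an LC3 relative on autophagosomes, was at 53.6 to 84.3 FPKM (median 71.98) in cTEC and 24.7 to 41.1 FPKM (median 30) in mTEC.

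**Figure D4:**
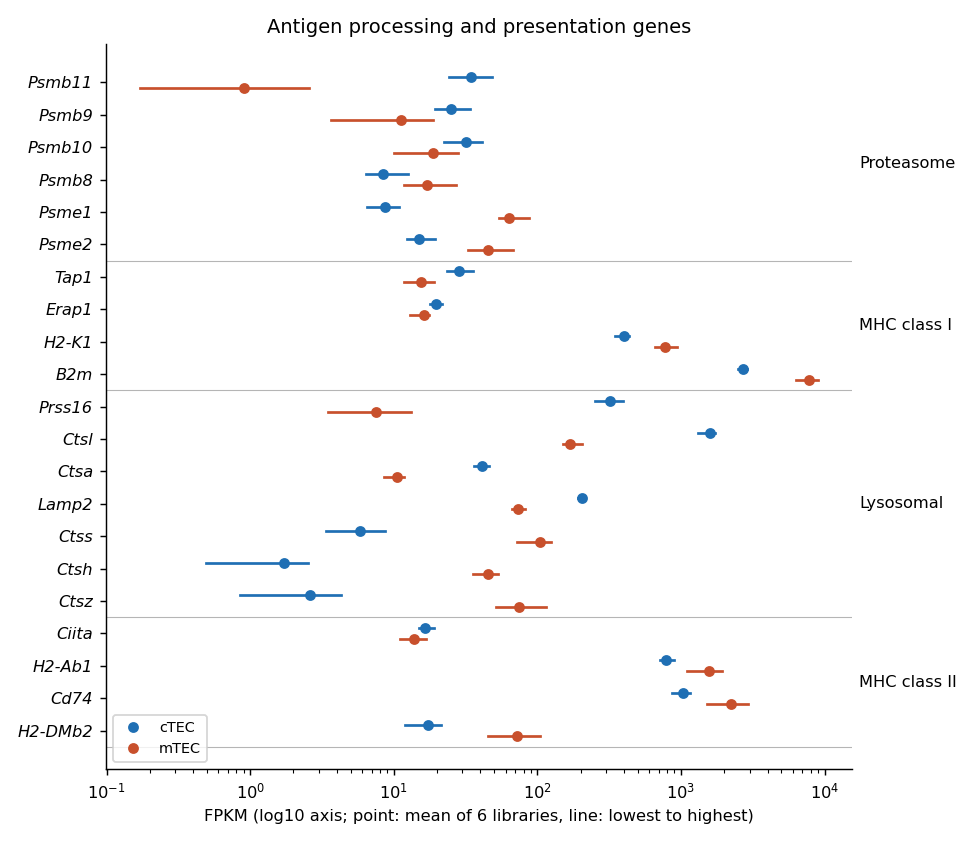
Levels of named proteasome, MHC class I, lysosomal and MHC class II genes (log10 FPKM axis). Points are population means over 6 libraries and lines run from the lowest to the highest library. Psmb11, Prss16, Ctsl, Ctsa and Lamp2 lie to the right in cTEC, and Psme1, Ctss, Ctsh, Ctsz and H2-DMb2 in mTEC.

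MHC class II genes were higher in cTEC for 0 of 10 and higher in mTEC for 8, against a background of 16.8% and 33.8%, with a median of -1.14. H2-Ab1, a class II chain, was at 716 to 892 FPKM (median 770.1) in cTEC and 1108 to 1922 FPKM (median 1659) in mTEC. Cd74, the invariant chain, was at 859 to 1156 FPKM (median 1068) in cTEC and 1519 to 2928 FPKM (median 2250.2) in mTEC. H2-DMb2, of the peptide exchange factor, differed most in the list, at 11.9 to 21.3 FPKM (median 17.4) in cTEC and 45.4 to 104 FPKM (median 68.4) in mTEC, although its paralog H2-DMb1 makes the split of reads uncertain. Ciita, the transactivator of class II genes, did not pass, at 14.96 to 19.1 FPKM (median 16.2) in cTEC and 11.1 to 16.8 FPKM (median 13.2) in mTEC (difference 0.25 ± 0.11, adjusted p = 0.0635).

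Of 12 costimulatory and adhesion ligands, 3 stood higher in cTEC and 8 in mTEC, beside 16.8% and 33.8% of all genes tested. Under 1 FPKM in every cTEC library were 3 of the 12, which could differ only toward mTEC. Cd80, which engages Cd28 and Ctla4, was at 0.45 to 2.29 FPKM (median 1.19) in cTEC and 64.4 to 87.04 FPKM (median 72.98) in mTEC, and its relative Cd86 was at 0 to 0.39 FPKM (median 0.065) in cTEC and 5.08 to 9.89 FPKM (median 8.49) in mTEC. Icosl, the ligand of Icos, was at 0.86 to 2.12 FPKM (median 1.71) in cTEC and 34.4 to 52.2 FPKM (median 46.01) in mTEC. Cd274, which encodes the inhibitory ligand PD-L1, went the other way, at 656 to 851 FPKM (median 764) in cTEC and 72.8 to 117 FPKM (median 93.9) in mTEC (difference 2.99 ± 0.11, adjusted p = 1.77e-11). The remaining cTEC-high members were the adhesion molecules Vcam1, at 126 to 154 FPKM (median 134) in cTEC and 81.5 to 104 FPKM (median 96.96) in mTEC, and Icam1, at 67.4 to 79.6 FPKM (median 69.1) in cTEC and 51.05 to 65.8 FPKM (median 56.8) in mTEC. The call for Icam1 was lost with Trap libraries only (adjusted p = 0.064), with control libraries only (0.123) and in the fit over all 30 libraries (0.201).

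The RANK and CD40 pathway drives medullary growth through NF-kB. Of 19 genes tested, 5 were higher in cTEC and 10 in mTEC, beside 16.8% and 33.8% of all genes tested. Tnfrsf11a, the receptor RANK, was at 2.05 to 7.91 FPKM (median 4.49) in cTEC and 61.2 to 87.3 FPKM (median 74.9) in mTEC. Tnfrsf11b, the decoy receptor osteoprotegerin that limits RANK signalling, was at 0.47 to 4.57 FPKM (median 1.95) in cTEC and 66.3 to 87.2 FPKM (median 80.5) in mTEC. The differences of receptor and decoy were -3.82 ± 0.21 and -4.75 ± 0.25. Traf1, an adaptor induced by NF-kB, was at 0.17 to 1.15 FPKM (median 0.64) in cTEC and 10.3 to 16.2 FPKM (median 14.6) in mTEC. The receptor of lymphotoxin, Ltbr, stood on the cortical side at 7.06 to 11.7 FPKM (median 7.71) in cTEC and 3.71 to 5.36 FPKM (median 4.39) in mTEC.

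Of 15 genes for proteins known to act with Aire, 11 did not pass, 1 was higher in cTEC and 3 were higher in mTEC, both directions below the background of 16.8% and 33.8%. The clearest was Sirt1, the deacetylase that activates Aire, at 24.2 to 34.96 FPKM (median 30.1) in cTEC and 117 to 142 FPKM (median 129) in mTEC (difference -2.08 ± 0.09, adjusted p = 1.52e-10). Top1, a topoisomerase at Aire-bound enhancers, stood the other way, at 44.6 to 54.6 FPKM (median 50.4) in cTEC and 29.2 to 35.6 FPKM (median 33.3) in mTEC. The libraries of the populations did not overlap for either gene.

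Genes of the peripheral cell types that medullary cells imitate were higher in mTEC almost throughout. The counts were 18 of 19 tuft cell genes, 17 of 18 microfold and gut genes, 12 of 12 neuroendocrine genes, 10 of 11 muscle genes and 15 of 16 genes of cornified skin, beside 33.8% of all genes tested. Medians were -1.66, -3.26, -2.37, -1.30 and -2.14 in that order. Genes that passed the expression filter only through the mTEC libraries had to differ in this direction, so the counts describe these lists and test nothing.

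Within the tuft list, Gnat3, the G protein of taste and tuft cells, was at 0 to 0.97 FPKM (median 0.04) in cTEC and 57.3 to 137 FPKM (median 90.8) in mTEC, and Trpm5, the cation channel downstream of it, was at 0.03 to 0.31 FPKM (median 0.11) in cTEC and 5.50 to 13.8 FPKM (median 8.25) in mTEC. Pou2f3, the factor that specifies tuft cells, was present in both populations, at 4.24 to 10.03 FPKM (median 6.84) in cTEC and 7.79 to 26.2 FPKM (median 14.01) in mTEC with overlap. The difference was -6.15 ± 0.23 for Gnat3, -3.04 ± 0.18 for Trpm5 and -0.92 ± 0.21 for Pou2f3. In the gut list, Lypd8, a flagella-binding protein of the colon, was at 0.04 to 1.51 FPKM (median 0.7) in cTEC and 63.05 to 179 FPKM (median 156) in mTEC. Cdx1, an intestinal homeobox factor, was at 0 to 0.8 FPKM (median 0.06) in cTEC and 16.9 to 30.9 FPKM (median 24.6) in mTEC. Gp2, the bacterial receptor of microfold cells, was at 0.03 to 2.04 FPKM (median 1.21) in cTEC and 8.85 to 43.5 FPKM (median 22.1) in mTEC. Tnfaip2 was the member that went against the list, at 7.11 to 13.4 FPKM (median 9.46) in cTEC and 2.98 to 5.27 FPKM (median 4.305) in mTEC.

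Among neuroendocrine genes, Chga, a granule protein of endocrine cells, was at 0.21 to 2.87 FPKM (median 1.18) in cTEC and 19.9 to 90.9 FPKM (median 71.8) in mTEC, Syt1, the calcium sensor of vesicle release, was at 0.39 to 0.64 FPKM (median 0.495) in cTEC and 38.4 to 45.96 FPKM (median 43.03) in mTEC, and Insm1, an endocrine transcription factor, was at 0 to 0.97 FPKM (median 0.1) in cTEC and 8.73 to 20.7 FPKM (median 18.7) in mTEC. Muscle genes were low in absolute level. Ttn, the giant spring of the sarcomere, was the highest at 0.65 to 1.02 FPKM (median 0.885) in cTEC and 13.6 to 22.1 FPKM (median 19.7) in mTEC. Myog, the myogenic factor, was at 0 to 0.24 FPKM (median 0) in cTEC and 0.62 to 2.21 FPKM (median 1.49) in mTEC. Ciliated cell genes were less uniform, with 1 of 10 higher in cTEC and 5 in mTEC, beside 16.8% and 33.8% of all genes tested. Under 1 FPKM in every cTEC library were 5 of the 11 in the list. Those tested through mTEC alone could differ only toward mTEC. Foxj1, the factor of motile cilia, was at 0.12 to 1.29 FPKM (median 0.89) in cTEC and 2.14 to 5.79 FPKM (median 3.14) in mTEC, and the member higher in cTEC was Dnah9, a dynein heavy chain, at 5.31 to 7.66 FPKM (median 7.15) in cTEC and 2.18 to 4.67 FPKM (median 3.38) in mTEC. Of the cornified list, Dsg1a, a desmoglein of upper skin layers, was at 0.97 to 4.54 FPKM (median 2.04) in cTEC and 70.9 to 120.4 FPKM (median 90.4) in mTEC, and Spink5, a skin protease inhibitor, was at 0.52 to 1.84 FPKM (median 1.66) in cTEC and 31.8 to 71.8 FPKM (median 42.1) in mTEC. Lor, the main protein of the cornified envelope, did not pass, at 0.36 to 1.43 FPKM (median 0.725) in cTEC and 0.24 to 1.89 FPKM (median 0.855) in mTEC.

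**Figure D5:**
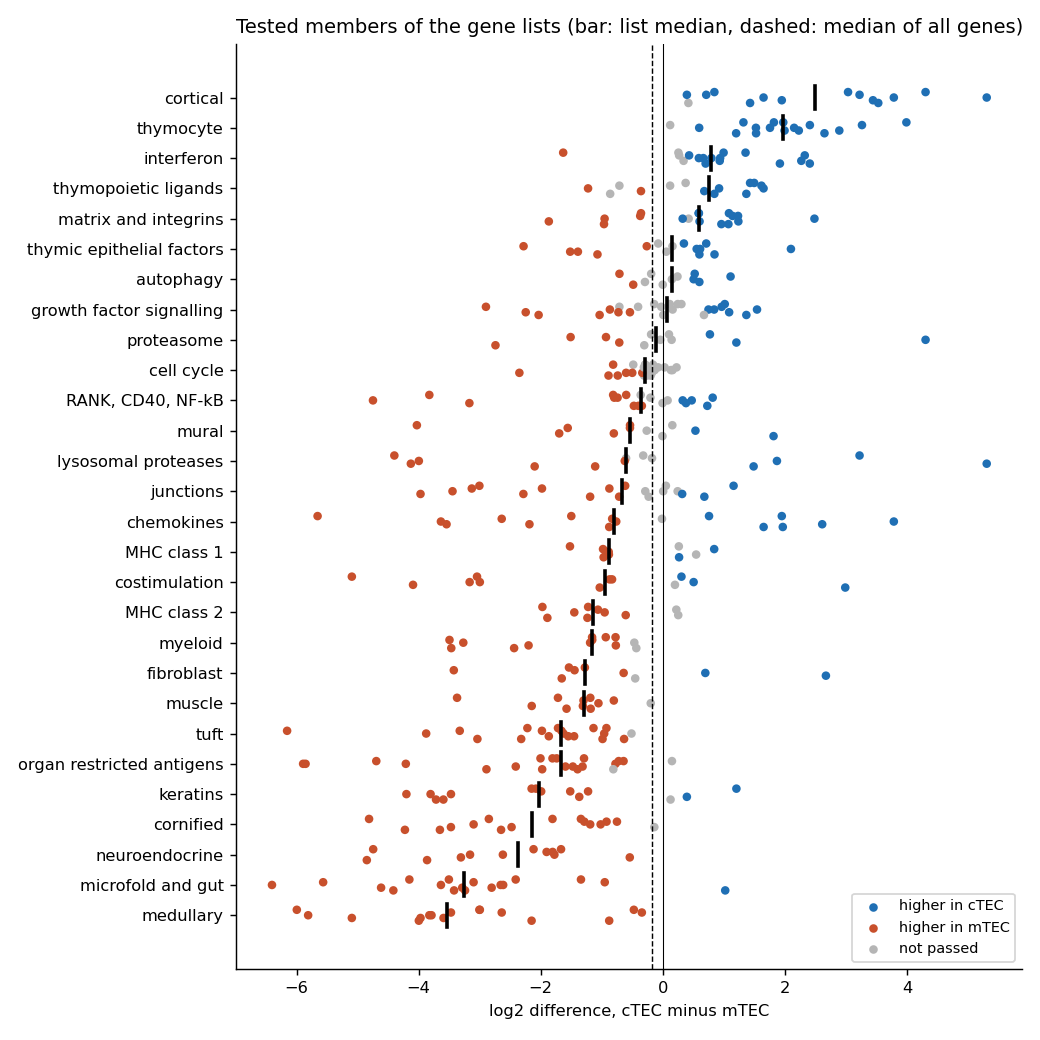
Difference between cTEC and mTEC (log2, horizontal axis, positive where cTEC is higher) of every tested member of 28 gene lists. Coloured points passed at an adjusted p under 0.05, grey points did not, black bars are list medians and the dashed line is the median of all genes at -0.17. Thymocyte, cortical and interferon lists lie to the right, and medullary, gut and cornified lists to the left.

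Of 14 keratins, which form the filaments of epithelial cells in pairs, 2 were higher in cTEC and 11 in mTEC, beside 16.8% and 33.8% of all genes tested. Under 1 FPKM in every cTEC library were 3 of the 14, which could differ only toward mTEC. Krt18, a simple-epithelial keratin, was at 635 to 714 FPKM (median 662) in cTEC and 235 to 333 FPKM (median 293) in mTEC. Its partner Krt8 was at 381 to 476 FPKM (median 420.1) in cTEC and 281 to 388 FPKM (median 306) in mTEC with overlap, and was not called in the fit over all 30 libraries (adjusted p = 0.504). The keratins higher in mTEC included Krt14, the partner of Krt5, at 8.61 to 16.99 FPKM (median 13.8) in cTEC and 111 to 186 FPKM (median 159.9) in mTEC, Krt19 at 0.38 to 3.08 FPKM (median 2.27) in cTEC and 25.2 to 60.5 FPKM (median 39.8) in mTEC, and Krt20, a keratin of gut lining, at 0 to 0.64 FPKM (median 0.165) in cTEC and 12.1 to 24.01 FPKM (median 14.5) in mTEC. Of 18 junction genes, 3 stood higher in cTEC and 10 in mTEC, against the same background. Here too, 3 of the 18 were under 1 FPKM in every cTEC library and could differ only toward mTEC. Claudins lay on the medullary side, with Cldn1 at 8.38 to 11.96 FPKM (median 11.4) in cTEC and 38.7 to 50.03 FPKM (median 45.2) in mTEC and Cldn7 at 0.13 to 0.7 FPKM (median 0.465) in cTEC and 8.69 to 25.3 FPKM (median 17.1) in mTEC. Dsp, which anchors keratin at desmosomes, lay on the cortical side at 307 to 433 FPKM (median 387) in cTEC and 145 to 187 FPKM (median 172) in mTEC. Cdh1, the main epithelial cadherin, did not pass, at 229.6 to 282 FPKM (median 246) in cTEC and 216 to 334 FPKM (median 241) in mTEC.

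Of 20 organ-restricted antigens tested, 0 were higher in cTEC and 18 in mTEC, beside 16.8% and 33.8% of all genes tested, and 8 more of the list were under the filter or not analysed here. Under 1 FPKM in every cTEC library were 16 of the 26 members in the table, and those that entered the test through mTEC alone had to differ this way, so the count supports nothing. Iapp, the islet amyloid hormone, was at 0.23 to 5.51 FPKM (median 0.89) in cTEC and 34.2 to 96.6 FPKM (median 57.3) in mTEC, and Sst, somatostatin, was at 0 to 0.73 FPKM (median 0) in cTEC and 9.05 to 38.5 FPKM (median 19.7) in mTEC. Ins2, an insulin gene, was listed at 0 in all cTEC libraries and was at 0.48 to 3.51 FPKM (median 1.14) in mTEC. The levels in mTEC thus ran over a wide range, from Ins2 to Csn2. Among parathyroid genes, Pth, parathyroid hormone, was at 0 to 35.97 FPKM (median 0.08) in cTEC and 436 to 2463 FPKM (median 1342) in mTEC, Casr, its calcium sensor, was at 1.02 to 2.61 FPKM (median 1.93) in cTEC and 9.15 to 13.4 FPKM (median 11.3) in mTEC. Gcm2, the factor that specifies the parathyroid, was at 0 to 0.22 FPKM (median 0) in cTEC and 1.70 to 7.14 FPKM (median 3.605) in mTEC. Within cTEC, Pth was at 29.5 and 36.0 FPKM in Trap replicates 3 and 4 and at 0.08 FPKM or less in the other 4 libraries, and Gcm2 was listed above 0 in the same pair alone, at 0.14 and 0.22 FPKM. Casr did not follow this pair, at 2.00 and 1.02 FPKM in Trap replicates 3 and 4 and at 1.56 to 2.61 FPKM in the other 4. All 3 genes differed between the populations without overlap, and thymus and parathyroid arise from the same pharyngeal pouch. The part of parathyroid cells in these levels was not tested.

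Of 17 matrix and integrin genes, 11 stood higher in cTEC and 5 in mTEC, beside 16.8% and 33.8% of all genes tested, with a median of 0.59. Fn1, fibronectin, was at 210.3 to 295 FPKM (median 249) in cTEC and 35.1 to 56.3 FPKM (median 41.9) in mTEC, and Lamc1, a laminin chain, was at 65.2 to 79.7 FPKM (median 67.1) in cTEC and 21.3 to 33.5 FPKM (median 30.2) in mTEC. Itga6, the laminin-binding integrin of basal cells, was at 41.8 to 56.8 FPKM (median 50.5) in cTEC and 77.2 to 115 FPKM (median 101) in mTEC. Col17a1, a hemidesmosome collagen, was at 3.12 to 4.80 FPKM (median 4.05) in cTEC and 13.1 to 22.9 FPKM (median 15.6) in mTEC. Of 24 growth factor genes, 7 stood higher in cTEC and 7 in mTEC, against the same background. Under 1 FPKM in every cTEC library were 3 of the 24, which could differ only toward mTEC. Egfr was at 59.8 to 86.5 FPKM (median 64.2) in cTEC and 29.2 to 33.5 FPKM (median 30.4) in mTEC, and Fgfr2, the receptor for the keratinocyte growth factors, was at 40.2 to 49.3 FPKM (median 45.9) in cTEC and 20.2 to 32.01 FPKM (median 23.8) in mTEC. Vegfa, the ligand that Trap binds, was at 20.6 to 27.9 FPKM (median 23.3) in cTEC and 10.2 to 16.7 FPKM (median 14.7) in mTEC (difference 0.75 ± 0.12, adjusted p = 7.43e-05). Bmp2 was at 6.38 to 9.62 FPKM (median 7.74) in cTEC and 25.1 to 54.1 FPKM (median 42.98) in mTEC. Wnt10b was at 0.01 to 0.37 FPKM (median 0.13) in cTEC and 5.91 to 9.73 FPKM (median 7.75) in mTEC.

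Most cell cycle genes did not pass. Of 25 tested, 0 were higher in cTEC and 7 in mTEC, a smaller share in each direction than the background of 16.8% in cTEC and 33.8% in mTEC. The median was -0.29 as deposited and 0.02 after quantile normalization, so its sign depended on the scaling. Ccnd1, the cyclin that starts the cycle, was the exception in size, at 0.43 to 1.60 FPKM (median 0.705) in cTEC and 6.48 to 12.1 FPKM (median 8.08) in mTEC, and Mki67, the proliferation antigen, did not pass, at 44.8 to 103 FPKM (median 70.8) in cTEC and 63.6 to 93.3 FPKM (median 77.6) in mTEC.

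Genes induced by interferon were higher in cTEC for 13 of 17 and higher in mTEC for 1, beside 16.8% and 33.8% of all genes tested. The median difference of these genes was 0.79 beside -0.17 over all genes. The promoters of some are printed here because many such genes are induced through a known binding motif. The interferon response element was searched as GAAA followed, after 2 bases of any kind, by GAAA again, on both strands of RefSeq's 300-base promoter windows (GRCm38.p6), printed in the gene's direction with each match in capitals. A window existed for 13 of the 18 genes of the list, and it held a match for 8 (61.5%), beside 3.99% of all 27025 genes with a window and 3.44% of all 32851 windows. The match is a description of letters and not a measured site.

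Rsad2, chr12:26456403-26456702, minus strand: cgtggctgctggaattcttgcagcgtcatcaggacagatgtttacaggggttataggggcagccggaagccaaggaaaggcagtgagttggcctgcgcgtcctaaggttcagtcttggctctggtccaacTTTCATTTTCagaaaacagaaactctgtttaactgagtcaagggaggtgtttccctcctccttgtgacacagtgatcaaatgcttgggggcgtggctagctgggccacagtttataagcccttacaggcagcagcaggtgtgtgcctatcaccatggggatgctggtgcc
Ifit3, chr19:34583279-34583578, plus strand: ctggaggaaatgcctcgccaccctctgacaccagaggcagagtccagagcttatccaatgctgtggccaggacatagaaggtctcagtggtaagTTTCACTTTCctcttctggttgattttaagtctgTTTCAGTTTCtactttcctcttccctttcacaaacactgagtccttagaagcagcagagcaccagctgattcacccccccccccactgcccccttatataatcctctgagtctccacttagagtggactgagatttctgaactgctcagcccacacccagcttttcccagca
Gbp2, chr3:142620413-142620712, plus strand: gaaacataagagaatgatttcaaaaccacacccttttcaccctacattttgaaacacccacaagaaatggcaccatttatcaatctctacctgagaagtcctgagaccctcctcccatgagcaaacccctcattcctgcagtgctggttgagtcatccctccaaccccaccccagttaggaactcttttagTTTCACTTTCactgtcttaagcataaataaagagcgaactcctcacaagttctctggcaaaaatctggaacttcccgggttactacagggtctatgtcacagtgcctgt

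Rsad2, which makes the antiviral compound ddhCTP, was at 101 to 207 FPKM (median 179) in cTEC and 19.5 to 47.3 FPKM (median 32.1) in mTEC (difference 2.41 ± 0.21, adjusted p = 1.38e-07). Ifit3, of the proteins that bind viral RNA, was at 182 to 311 FPKM (median 244) in cTEC and 39.9 to 69.5 FPKM (median 43.5) in mTEC, and Gbp2, a guanylate-binding protein of cell-autonomous defence, was at 199 to 255 FPKM (median 241) in cTEC and 37.7 to 66.05 FPKM (median 43.8) in mTEC. No cTEC library of these genes was as low as an mTEC library. Ifit2, whose windows held no match, was at 25.9 to 50.7 FPKM (median 38.2) in cTEC and 7.57 to 13.9 FPKM (median 8.305) in mTEC. Irf1, a factor that binds such elements and whose windows also held none, was at 53.9 to 105 FPKM (median 65.1) in cTEC and 19.9 to 33.3 FPKM (median 25.7) in mTEC. Oas2, a sensor of double-stranded RNA, went against the list at 0.74 to 0.96 FPKM (median 0.82) in cTEC and 2.69 to 7.41 FPKM (median 4.97) in mTEC. Usp18, Irf7 and Bst2 did not pass, and Ifnb1, which encodes interferon beta, was under the filter.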

How the data were processed

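RNA was sequenced from 12 sorted epithelial libraries after amplification of cDNA, per the labels' protocols. The authors deposited FPKM values for 18847 genes, rounded to 2 decimals, and per the submitters' processing notes bcl2fastq 2.17, STAR and DESeq2 were used with GRCm38 and mm10, while the sources used here do not give the role of each tool, the counting program, its use of strand or the annotation. FPKM carries no depth, so the depth behind each value is unknown, and the only error available is the spread between libraries.

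Date-like symbols (27) were restored through their Ensembl identifiers, and coordinates came from GENCODE M21. Genes at 1 FPKM or more in at least 2 of the 12 libraries were kept, values were transformed as log2(FPKM + 1), and limma 3.58.1 in R 4.3.3 fitted population with treatment as a blocking factor, with a variance trend, or with their interaction. It was tested on simulated data. Counts of genes per library were compared by exact permutation tests (scipy 1.17.1). Alternatives covered the pseudocount, the filter, 3 scalings, the treatment term, all 30 libraries, each treatment alone, a replicate block and leaving out each library.

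The members and gene lists were chosen with earlier results of these data known. Named genes were the 20 of largest difference in each direction among called genes without overlap and with a mean of at least 5 FPKM, up to 5 members of smallest p in each direction of each list and any member against its list, the markers and sort genes, and the 3 genes of smallest interaction p in each direction. Other names, such as members that did not pass or stayed under the filter, low lineage factors and genes in the closing observations, were chosen after their values were seen. Ifi30, Ins1 and Spt1 were not analysed here.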

Additional observations from a re-analysis of the deposited data

Results flagged for a closer look

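In the Trap groups of 4 libraries, 17 of 370 values checked had 1 library far from the other 3, and chance flags about 1 in 20 such groups. Among cTEC Trap libraries, Cxcl12 was at 54.0 FPKM in replicate 4 and at 59.4 to 60.2 FPKM in the other 3, Gbp2 was at 199 FPKM in replicate 4 and at 241 to 243 FPKM in the others, and H2-DMb2 was at 21.3 FPKM in replicate 1 and at 16.9 to 17.6 FPKM in the others. Bst2 was at 17.1 FPKM in replicate 3 and at 13.3 to 13.8 FPKM in the others. Casr was at 1.02 FPKM in replicate 4 and at 1.85 to 2.00 FPKM in the others, and Gp2 was at 0.03 FPKM in replicate 4 and at 1.56 to 2.04 FPKM in the others. Among low medullary genes, Cdx1 was at 0.8 FPKM in replicate 4 and at 0 to 0.1 FPKM in the others, and 1 library was above 0 for Klk7 at 0.06 FPKM in replicate 4, Ang4 at 0.17 FPKM in replicate 3 and Myog at 0.24 FPKM in replicate 1. The summed B cell genes were at 4.35 FPKM in replicate 2 and at 2.2 to 2.4 FPKM in the other 3.

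Among mTEC Trap libraries, Krt5 was at 273 FPKM in replicate 2 and at 383 to 390.2 FPKM in the other 3, and Rsad2 was at 21.7 FPKM in replicate 2 and at 32.0 to 32.6 FPKM in the others. Insm1 was at 8.73 FPKM in replicate 1 and at 18.6 to 20.7 FPKM in the others, and Lor was at 1.89 FPKM in replicate 4 and at 0.75 to 0.88 FPKM in the others. The summed autophagy genes were at 189 FPKM in replicate 2 and at 226 to 231 FPKM in the others, and the summed junction genes were at 1550.0 FPKM in replicate 4 and at 1384 to 1409 FPKM in the others.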

How the results depend on the processing

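The counts of higher genes, 2525 in cTEC and 5088 in mTEC, became 4471 in cTEC and 3239 in mTEC after quantile normalization and 940 in cTEC and 2505 in mTEC with the control libraries only, and a filter of 5 FPKM left 3176 higher in mTEC. Leaving out 1 library gave 2341 to 2490 genes higher in cTEC and 4725 to 5101 higher in mTEC, 0 genes with an interaction, a cTEC minus mTEC difference of -1899 to -1730 genes at 1 FPKM, and 50 to 64 cTEC and 709 to 795 mTEC genes on in one population only. The 48 genes on only in cTEC became 23 at 0.5 FPKM, 87 at 2 FPKM and 9 after rescaling to TPM. List medians that changed sign were proteasome (0.0467 under TPM and 0.0495 under upper quartile scaling), cell cycle (0.0221) and mural (0.0459) under quantile normalization, ciliated (0.81) at the filter of 5 FPKM and growth factor signalling (-0.0125) with Trap libraries only. Genes that had not passed changed sign as follows: Mki67 (0.00349 under TPM, 0.00845 under upper quartile scaling), Pcif1 (0.0504, 0.048 and 0.139 under TPM, upper quartile and quantile scaling), Lor (0.40 under quantile normalization), Irf7 (-0.0121) and Ube2c (0.21) with control libraries only, and Cdh1 (-0.0465 with Trap libraries only, and -0.0471 to 0.0781 over the 12 fits without 1 library, negative in 7). Their cause was not tested. Of 140 named genes that passed, none changed direction under any alternative run. Of these, 19 lost the call with the control libraries only, which are 2 against 2, 7 in the fit over all 30 libraries, among them Epcam (adjusted p = 0.113), and at most 4 under any other alternative.

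Deviations of same-numbered cTEC and mTEC libraries from their group means correlated weakly, at 0.03, 0.03, 0.11 and 0.06 under Trap. Trap libraries of unlike number correlated at -0.089 to 0.085. In controls the values were -0.05 and -0.05, which 2 libraries per population force to be equal. Not every library correlated best with its own number, and whether the numbers pair the samples is not settled by these values. A replicate block gave 2509 genes higher in cTEC, 5066 higher in mTEC and 0 with an interaction. Depth is unknown, so differences between genes near 0 FPKM are not resolved here.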

Other observations

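The gene families below were picked after their values were seen, so their counts describe these libraries and test nothing. Kallikreins, secreted serine proteases encoded in one cluster, were higher in cTEC for 0 and in mTEC for 23 of 23 tested genes, beside 16.8% in cTEC and 33.8% in mTEC of all genes tested. Of the 25 kallikreins in the table, 12 were off in every cTEC library and on in every mTEC library, and the family summed to 0.74 to 4.12 in cTEC and 119 to 257 FPKM in mTEC. Klk14, a skin kallikrein, was at 0 to 0.42 FPKM (median 0.055) in cTEC and 7.96 to 41.5 FPKM (median 19.3) in mTEC, and Klk7, which sheds the outer skin layer, was at 0 to 0.2 FPKM (median 0) in cTEC and 8.65 to 23.7 FPKM (median 15.4) in mTEC. The Klk1b copies are near-identical, so single copies are uncertain. Skint genes, of which Skint1 selects the gamma delta T cells of mouse skin, were higher in mTEC for 8 of 9 tested. Skint1 itself was well expressed in both populations, at 20.3 to 40.5 FPKM (median 33.9) in cTEC and 160.0 to 215 FPKM (median 183) in mTEC. Mucins were higher in mTEC for 13 of 14 tested, with Muc5b, a mucin of airway secretion, at 1.16 to 6.35 FPKM (median 3.45) in cTEC and 17.9 to 56.8 FPKM (median 34.6) in mTEC. Interleukin ligands were mixed, with 3 of 26 tested higher in cTEC and 12 in mTEC and a median difference of -0.57. Il7, whose values stand above, was among those higher in cTEC. Of those higher in mTEC, Il13, a cytokine of type 2 immunity, was at 0 to 0.18 FPKM (median 0.075) in cTEC and 13.6 to 54.4 FPKM (median 28.1) in mTEC, and Il12a, a subunit of interleukin 12 and 35, was at 0.06 to 1.05 FPKM (median 0.465) in cTEC and 21.4 to 48.3 FPKM (median 27.3) in mTEC.

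A run of neighbouring genes on mouse chromosome 2 was higher in cTEC together. Within 100 kb of Neurl2 (GRCm38, 164830732 to 164833456), 13 genes were tested, 8 were higher in cTEC and 0 in mTEC, beside 16.8% and 33.8% of all genes tested. Neurl2, which encodes an adaptor of a ubiquitin ligase, was at 64.5 to 94.1 FPKM (median 80.5) in cTEC and 0.59 to 7.65 FPKM (median 2.42) in mTEC. Its neighbour Zswim1 was at 50.7 to 72.8 FPKM (median 62.6) in cTEC and 2.69 to 9.02 FPKM (median 6.07) in mTEC, Spata25 was at 14.99 to 24.9 FPKM (median 21.7) in cTEC and 0 to 2.69 FPKM (median 1.58) in mTEC, and Zswim3 was at 5.61 to 11.7 FPKM (median 9.19) in cTEC and 0.53 to 3.88 FPKM (median 1.84) in mTEC. On the other side lie Ctsa and Pltp, whose values stand above. The remaining called genes of the window had smaller differences, of 0.43 and 0.71, and their libraries overlapped. Genes of the window that did not pass included Pcif1 at 5.50 to 7.53 FPKM (median 6.31) in cTEC and 5.23 to 7.99 FPKM (median 7.55) in mTEC and Ube2c at 6.92 to 15.8 FPKM (median 11.7) in cTEC and 10.8 to 23.7 FPKM (median 13.8) in mTEC. Several of these genes overlap one another on opposite strands in the annotation, and whether the counting used strand is not given in the sources used here, so reads of overlapping neighbours cannot be told apart. The run was noticed after the values were seen.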
